A study of Mus musculus with 8 samples.

Results

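Mouse small-intestinal organoids labelled as Tcf7l2 null with Ascl2 overexpression were compared with organoids labelled as Ascl2 overexpressing, as the difference between 2 of the 8 arrays of the series. Organoids are crypt-like epithelial structures grown from intestinal tissue in culture. One array held RNA of organoids labelled Tcf7l2null/Ascl2 over expressing, called Tcf7l2 null/Ascl2 organoids below, in which, per the labels, a 16 h pulse of 4OH-tamoxifen deleted Tcf7l2 and switched on Ascl2. The other held RNA of organoids labelled Ascl2 over expressing, called Ascl2 organoids below, in which the same pulse switched on Ascl2 alone. On both arrays this RNA carried the dye Cy5, and the Cy3 channel held a common control, RNA of dsGFP transduced organoids in which the pulse induced GFP. Each value per array is a log2 ratio to that control, and each difference is Tcf7l2 null/Ascl2 minus Ascl2, so the control and the dye cancel. The comparison asks which transcripts depend on Tcf7l2 while Ascl2 is supplied. There was 1 array a side, so no test was possible and no p-value is given. "At least 2-fold" means a log2 difference of 1 or more in size, and a difference of values is a description of these arrays.

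Tcf7l2 is a DNA-binding partner of beta-catenin, through which the Wnt signal switches on genes in the intestinal crypt, and in mice its loss stops the division of crypt cells. Ascl2 is a basic helix-loop-helix transcription factor, itself a Wnt target, that marks and maintains the crypt base columnar (CBC) stem cells. Stem cells give rise to dividing progenitors, which mature into absorptive enterocytes or into secretory Paneth, goblet, enteroendocrine and tuft cells.

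The targeted genes were examined first, and their probes did not check the labels. The brightest of 3 Tcf7l2 probes (mm9 chr19:56007586-56007645) had a log2 ratio of 0.18 in Tcf7l2 null/Ascl2 organoids and 0.05 in Ascl2 organoids, while the dsGFP self-self array, with the control RNA in both channels, gave 0.37. The other probes differed by -0.13 and -0.35. On the array labelled Tcf7l2 null the 3 probes were -0.35, -0.10 and -0.19. The single Ascl2 probe (mm9 chr7:150154439-150154498) was -0.92 in Tcf7l2 null/Ascl2 organoids and -0.68 in Ascl2 organoids, below the control on both arrays labelled as overexpressing it. The same probe was -0.57 on the Tcf7l2 null array. On the Ascl2 arrays of experiment 1, described next, it was -0.31 and 0.01, so it was not clearly raised there either. On the Ascl2 null array of experiment 3 it was -1.065. Which exons of Tcf7l2 were deleted, which part of Ascl2 was overexpressed, and how many cultures stood behind each RNA are not given in the sources used here. Every direction below therefore rests on the array labels, and the group names stand for the arrays so labelled.

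The arrays labelled Ascl2 over expressing also differed between experiments. The time of RNA extraction is given for experiment 1 but not for experiment 2, so it may differ. Across 19233 genes, the log2 ratios of the Ascl2 array used here had a Pearson correlation of 0.14 with the mean of the 2 Ascl2 arrays of experiment 1 (CMV-driven Ascl2 against VillinCreERT2 organoids, on another slide). The same correlation was -0.29 for the Tcf7l2 null/Ascl2 array, 0.58 for the Tcf7l2 null array and -0.01 for the dsGFP self-self array. Genes are not independent replicates, and these values only describe the arrays. Whether labels were exchanged within experiment 2 was not tested, and an exchange would change what every difference below compares. With the experiment 1 arrays in place of the Ascl2 array, the median difference of replication genes, described below, was -1.44 instead of -1.10. That of mitosis genes was -1.46 instead of -1.20, and that of enterocyte genes 0.69 instead of 0.62. CBC genes moved further, to -1.30 from -0.37, and Paneth genes to -1.50 from -0.08. The Tcf7l2 null/Ascl2 array is the same in both, so this is not an independent check. Control, dye and slide also no longer cancel.

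Of 41174 probes, 27621 were kept, and 19268 genes had a difference. At least 2-fold lower in Tcf7l2 null/Ascl2 organoids were 276 genes (1.43%), and 104 genes (0.54%) were at least 2-fold higher, 380 (1.97%) in all. Counts of 2-fold genes in the gene lists below are to be read beside these shares. The dsGFP RNA in the Cy3 channel of the same arrays, which is the same RNA on both sides, differed at least 2-fold for 110 genes (0.571%). The dsGFP self-self array less the VillinCreERT2 self-self array of experiment 3 did so for 185 genes (0.961%), of which 171 were lower. The SD over genes was 0.34 for the difference, 0.30 for the Cy3 channel and 0.33 for the self-self arrays. The spread over all genes was thus close to that of these technical comparisons, but neither is like for like. The self-self arrays lay on different slides, whereas the arrays compared here shared 1 slide, and the Cy3 values are single channels rather than ratios. On that shared slide, the dsGFP self-self array alone was at least 2-fold from 0 for 4 of 19278 genes (0.0207%). That is the ratio of 1 array and not a difference between arrays. Of the 276 lower genes, 224 lay in the brightest of 3 equal groups of genes by intensity. In the Cy3 channel, 3 of the 276 lower genes and 0 of the 104 higher genes differed by 2-fold or more. The arrays were loess-normalised, which takes out trends with brightness. With median centring instead, the median of all genes shifted by 0.12, and 590 genes were higher and 104 lower, so that 85.0% of the 2-fold genes were higher instead of 27.4%. Counted from the median of all genes, 349 were then higher and 172 lower, against 99 and 284 with loess. Of the 276 lower genes, 104 were still at least 2-fold lower with median centring, and so were 268 with the scanner's own log ratio. In Cy5 alone, without the ratio to the control, 193 of the 276 lower genes and 73 of the 104 higher genes were still at least 2-fold apart.

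**Figure D1:**
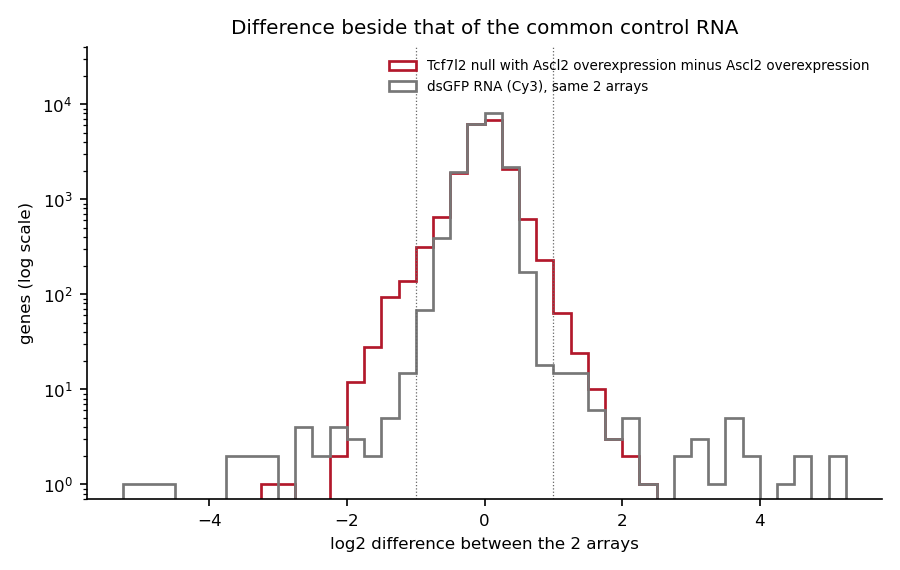
Histogram of the log2 difference between the 2 arrays for all measured genes (red, Cy5, Tcf7l2 null/Ascl2 minus Ascl2, as ratios to the control) and of the dsGFP control RNA in Cy3 on the same arrays (grey). The vertical axis is logarithmic, and dotted lines mark 2-fold. The red distribution has 276 genes left of the lower line and 104 right of the upper line, against 110 grey genes outside both.

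The lower genes were mostly low in Tcf7l2 null/Ascl2 organoids rather than high in Ascl2 organoids. For 212 of the 276, only the Tcf7l2 null/Ascl2 array was more than 0.5 below the control. For 49, only the Ascl2 array was more than 0.5 above it, and for 15 both held. The higher genes divided evenly, with 47 high in Tcf7l2 null/Ascl2 organoids only, 47 low in Ascl2 organoids only and 10 with both. The median log2 ratio of the lower genes was -1.18 in Tcf7l2 null/Ascl2 organoids and 0.03 in Ascl2 organoids. That of the higher genes was 0.61 in Tcf7l2 null/Ascl2 organoids and -0.62 in Ascl2 organoids.

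**Figure D2:**
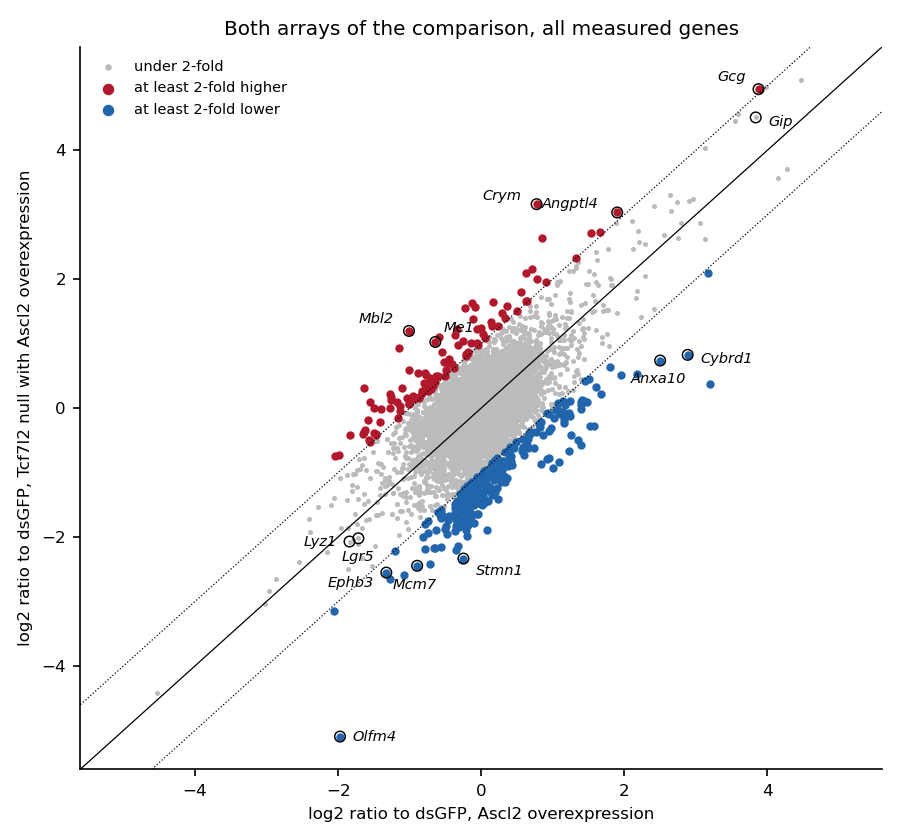
Log2 ratio to the dsGFP control of every measured gene in Tcf7l2 null/Ascl2 organoids (vertical axis) and in Ascl2 organoids (horizontal axis), 1 array each. Dotted lines mark 2-fold differences. Olfm4 lies farthest below the diagonal, at -5.10 and -1.97, and Crym farthest above it, at 3.16 and 0.77.

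The 24 most different genes with a current symbol, 12 in each direction, were of many kinds. Crym, the thyroid hormone-binding mu-crystallin (mm9 chr7:127329970-127330029), was 3.16 in Tcf7l2 null/Ascl2 organoids and 0.77 in Ascl2 organoids, a difference of 2.39. Mbl2, the mannose-binding lectin, was 1.20 against -1.01 in Ascl2 organoids (difference 2.21). Hsd17b6, a steroid dehydrogenase, was 0.93 against -1.15 (2.09), and the amine-degrading enzyme Maob 0.31 against -1.63 (1.94). Crym and C1qtnf12 (2.64 against 0.85) were above the control on both arrays, while Mbl2, Hsd17b6, Maob and the malic enzyme Me1 (1.03 against -0.64) lay on opposite sides of it. Urah, Slc5a4a, Phyhd1, Cox7a1, Tshz1 and the water and glycerol channel Aqp3 completed the higher side, with differences from 1.57 to 1.77. The probes of Tshz1 disagreed, at 1.59 and 0.42.

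On the lower side stood Stmn1, which destabilises microtubules and marks dividing cells, with -2.33 in Tcf7l2 null/Ascl2 organoids and -0.25 in Ascl2 organoids (difference -2.09). Cybrd1, an iron reductase of the duodenal brush border, was 0.82 against 2.89 (-2.06), above the control on both arrays, although a dimmer probe gave a difference of -0.17. Cyba, a subunit of NADPH oxidase, was -0.83 against 1.09 (-1.92), and Noxa1, which activates that enzyme, -0.49 against 1.35 (-1.84). Clu, the secreted chaperone clusterin, was -0.28 against 1.58 (-1.86), and the annexin Anxa10 0.74 against 2.50 (-1.76). The remaining members were the water channel Aqp4, the membrane tether Vapb, the chromatin assembly subunit Chaf1b and the histone genes H2ac13, H2ac15 and H2ac23, with differences from -1.78 to -1.98. Histone genes are near-identical copies, so their probes may share transcripts. The 3 Vapb probes ran from -1.93 to 0.00. With the experiment 1 arrays in place of the Ascl2 array, 29 of 160 named genes changed sign. Among those at least 2-fold apart here, these were Cybrd1 (0.49) and Anxa10 (0.10).

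**Figure D3:**
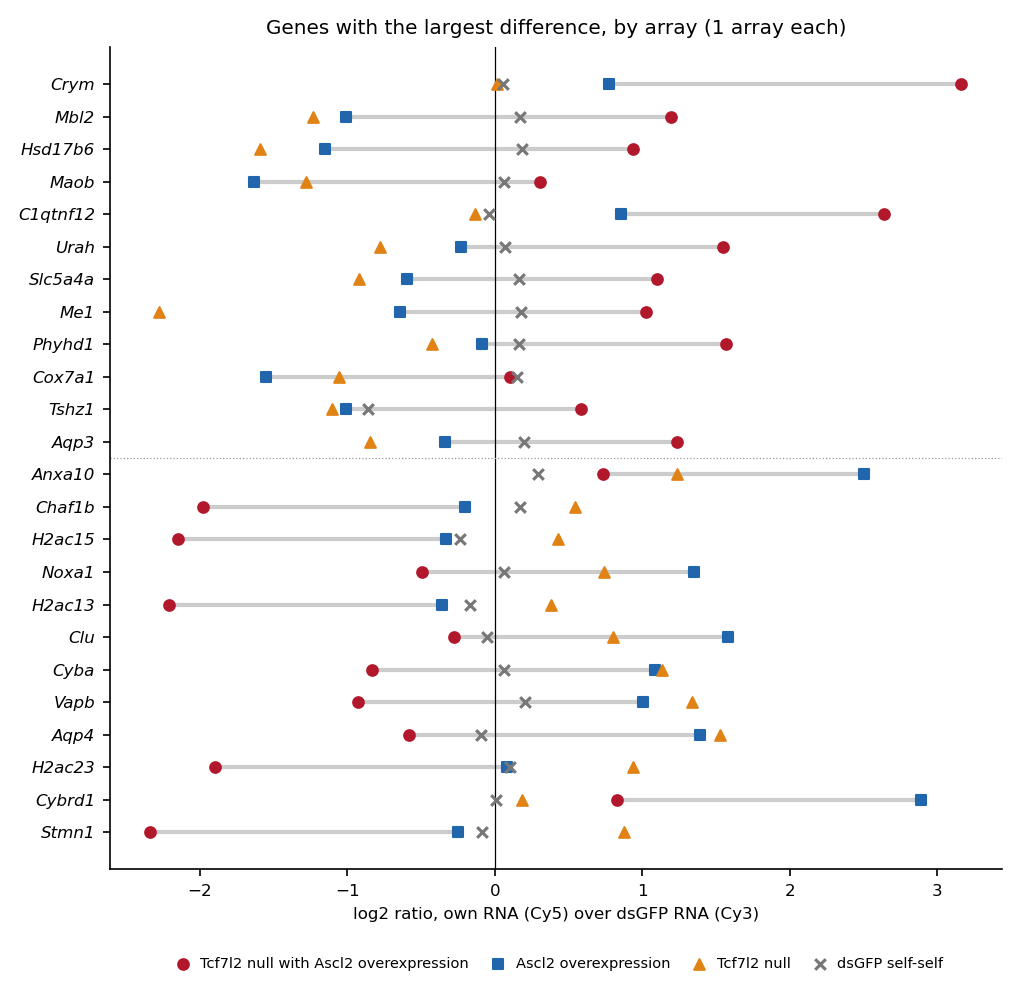
Log2 ratio to dsGFP of the 12 highest (top) and 12 lowest (bottom) genes by the rule for named genes, on the 4 arrays of experiment 2. Grey bars join Tcf7l2 null/Ascl2 (red circles) and Ascl2 (blue squares) values. On the Tcf7l2 null array (orange triangles) every gene of the lower group was above the control, and every gene of the higher group except Crym, at 0.02, was below it.

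A further 10 genes were above background in Cy5 on 1 array only and had the largest bounds from Cy5 alone. Mtif2 was at least 16.4-fold higher in Tcf7l2 null/Ascl2 organoids, and Slc37a3, Atn1, Cdkn2aipnl and Cse1l at least 7.19-fold. Tmem42 was at least 9.20-fold lower, and Ptpn12, Nlk, Wdr41 and Rtn4ip1 at least 4.49-fold. The dsGFP RNA in Cy3 at the same spots moved the same way, by 4.37 for Mtif2 and -3.40 for Tmem42 on the log2 scale, and the ratio differences were -0.29 and 0.20. These bounds are not used further.

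The factors that carry the Wnt signal in the nucleus differed little in the loess ratios, although some were too dim to measure well. Of the TCF/LEF and beta-catenin complex list, 14 members were measured, between -0.32 for the co-repressor Tle1 and 0.48 for its relative Tle2. Of these 0 were 2-fold apart, and at the share of 1.97% over all genes a list of this size need hold none. The beta-catenin gene Ctnnb1 was 0.07 in Tcf7l2 null/Ascl2 organoids and 0.20 in Ascl2 organoids. Of 20 Wnt target genes measured, 4 were at least 2-fold lower (1.43% over all genes) and 1 was at least 2-fold higher (0.54% over all genes). The list's median was -0.17, against 0.01 over all genes, and -0.08 with median centring. Myc, which drives growth, was -1.81 in Tcf7l2 null/Ascl2 organoids and -0.27 in Ascl2 organoids, a difference of -1.55 that its 3 probes gave as -1.55 to -1.08. Ephb3, the ephrin receptor that positions cells in the crypt, was -2.55 against -1.33 (-1.23), and cyclin D1, Ccnd1, -0.85 against 0.31 (-1.16). In Cy5 alone Ephb3 differed by -0.71, below 2-fold, while its Cy3 control signal differed by 0.52. Sox9 was -1.80 against -0.79 (-1.01), and its 3 probes ran from -1.01 to -0.15. Cd44 (-0.68), Ephb2 (-0.63) and Sox4 (-0.72) lay on the same side within 2-fold. The feedback inhibitor Axin2 was not well above background in Cy5 in Tcf7l2 null/Ascl2 organoids. Its log2 ratios were -0.88 against -0.96 in Ascl2 organoids (0.08), while in Cy5 alone it was at least 1.94-fold lower, its Cy3 control signal differed by -1.03, and the scanner's ratio differed by -2.47. Its direction thus depended on the processing. Rnf43 and Znrf3, which remove Wnt receptors, had differences of -0.21 and -0.22. Sp5, a zinc finger repressor, went the other way, 0.49 against -0.63 (1.13).

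Promoters of 3 of these crypt genes are shown because they stand at both ends of the difference: Sp5 and Ephb3 among the Wnt targets, and Olfm4, the stem cell gene described next. The sequences are RefSeq's, build GRCm38.p6, and run 5′ to 3′ over the 250 bases before the start. Capitals mark the TCF/LEF word CTTTGAA, as well as its variant CTTTGAT, its variant CTTTGTA, and its variant CTTTGTT, which Tcf7l2 and its relatives can bind, and the E-box CAGCTG, a form bound by Ascl2-type factors, on either strand. The windows are chr2:70474673-70474922 (plus strand) for Sp5, chr16:21204545-21204794 (plus strand) for Ephb3 and chr14:80000052-80000301 (plus strand) for Olfm4.
Sp5: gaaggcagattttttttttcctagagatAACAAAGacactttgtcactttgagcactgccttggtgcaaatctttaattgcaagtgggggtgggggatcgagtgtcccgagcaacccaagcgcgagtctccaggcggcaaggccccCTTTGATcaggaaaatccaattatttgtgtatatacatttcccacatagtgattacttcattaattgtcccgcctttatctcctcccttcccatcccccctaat
Ephb3: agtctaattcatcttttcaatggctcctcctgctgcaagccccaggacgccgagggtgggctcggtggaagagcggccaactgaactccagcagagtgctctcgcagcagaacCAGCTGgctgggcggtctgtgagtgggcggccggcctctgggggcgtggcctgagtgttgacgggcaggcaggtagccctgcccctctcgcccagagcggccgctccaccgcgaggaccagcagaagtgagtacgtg
Olfm4: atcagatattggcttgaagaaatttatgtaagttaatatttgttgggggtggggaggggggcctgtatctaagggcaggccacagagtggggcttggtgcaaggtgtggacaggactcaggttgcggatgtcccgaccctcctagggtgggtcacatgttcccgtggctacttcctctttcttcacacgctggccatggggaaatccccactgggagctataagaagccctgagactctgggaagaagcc
Sp5 held 2 TCF/LEF words, Ephb3 held 1 E-box, and neither motif was in the Olfm4 window. Over windows from 250 bases before to 50 after the start, a TCF/LEF word was found for 23 of 78 genes at least 2-fold higher that have a window (29.5%) and for 19 of 216 genes at least 2-fold lower (8.8%), against 15.2% of 12314 measured genes and 16.9% of all 32851 windows. The E-box stood at 25.6% for the higher genes, 18.5% for the lower genes, 18.1% for measured genes and 16.3% for all windows. Here and below a gene counted if any of its windows held the word, while the share of all windows is per window. The 78 higher genes had 112 windows, the 216 lower genes 246 and the 12314 measured genes 15471. The median GC content was 53.6% for the higher genes, 59.7% for the lower genes and 59.3% for measured genes. The part of GC content and of windows per gene in the shares was not tested. A word in a promoter is a description of its letters, and says nothing of what binds there.

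Most genes of CBC stem cells were below the control, 22 of 24 measured in Tcf7l2 null/Ascl2 organoids and 19 of 24 in Ascl2 organoids. Of the 24, 7 were at least 2-fold lower in Tcf7l2 null/Ascl2 organoids and 0 higher, against 1.43% and 0.54% over all genes. The median was -0.37, which was -0.12 with median centring and -0.96 in the authors' deposited table. Olfm4, a secreted glycoprotein and CBC marker, was -5.10 in Tcf7l2 null/Ascl2 organoids and -1.97 in Ascl2 organoids. Its difference of -3.12 was the lowest of all genes, and a further probe gave -2.55. Aqp4 was -0.58 against 1.39 (-1.97), the cell cycle kinase Cdk6 -1.28 against 0.13 (-1.41), the ion transporter Slc12a2 -2.18 against -0.79 (-1.39), and the potassium channel Kcnq1 -1.18 against 0.06 (-1.25). Phgdh, the first enzyme of serine synthesis, and Cdca7 had differences of -1.17 and -1.01. Lgr5, the R-spondin receptor that defines these cells, was low on both arrays, at -2.02 in Tcf7l2 null/Ascl2 organoids and -1.72 in Ascl2 organoids, and differed by -0.30. The Lgr5 difference was -0.68 in Cy5 alone, and -1.30 both by the scanner's ratio and in the authors' deposited table. Smoc2 (-0.98), Lrig1 (-0.50) and Rgmb (-0.17) lay below 0 as well, and Msi1 (0.43) and Esrrg (0.48) above it. Probes disagreed for Cdk6 (-1.41 to -0.27), Msi1 (-0.01 to 0.43) and Esrrg (-0.09 to 0.48). On the Tcf7l2 null array 19 of the 24 members were above the control, with a median of 0.39, against 0.01 on the dsGFP self-self array. In RNA of whole organoids, fewer cells of a type and less RNA per cell cannot be told apart.

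The cell division genes held the lowest medians of all 31 lists. All 25 measured mitosis genes were lower in Tcf7l2 null/Ascl2 organoids, 15 of them at least 2-fold, with a median difference of -1.20. Of 31 DNA replication genes, 30 were lower, 19 of them at least 2-fold, with a median of -1.10. The median log2 ratio of mitosis genes was -1.21 in Tcf7l2 null/Ascl2 organoids and -0.07 in Ascl2 organoids, and that of replication genes -1.39 and -0.23. The Ascl2 array lay nearer the control, and the Tcf7l2 null/Ascl2 array carried the difference. Most of these genes were slightly below the control on the Ascl2 array too, where 2 of 31 replication and 8 of 25 mitosis genes were above it. Among the helicase subunits that unwind DNA for replication, Mcm6 was -1.90 in Tcf7l2 null/Ascl2 organoids and -0.21 in Ascl2 organoids (-1.69), Mcm5 -1.81 against -0.23 (-1.57), and Mcm7 -2.45 against -0.90 (-1.55). Mcm3 and Mcm4 differed by -1.49 and -1.54, and Mcm2 lost its value to an outlier spot. Uhrf1, which copies DNA methylation at the fork, was -2.15 against -0.56 (-1.59), and Rrm1, the large subunit of ribonucleotide reductase, -1.61 against -0.15 (-1.45). The sliding clamp Pcna was -0.01 against 0.33 (-0.34). In mitosis, Cdc20, an activator of the anaphase ligase, was -1.48 against 0.02 (-1.50), its partner enzyme Ube2c -1.21 against 0.08 (-1.29), and the cyclins Ccna2, Ccnb1 and Ccnb2 had differences from -1.26 to -1.35. Mki67, the proliferation marker, was -1.89 against -0.63 (-1.26). On the Tcf7l2 null array all 25 mitosis genes and all 31 replication genes were above the control, with medians of 0.61 and 0.46. Of all measured genes, 9699 of 19268 were above the control on that array.

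These genes lay together on the lower side, so promoters of 2 helicase and 2 mitosis genes are shown, again from RefSeq's GRCm38.p6 over the 250 bases before the start, 5′ to 3′. Capitals mark E2F words (TTTCGCGC, TTTGGCGC or TTTCCCGC, typical of S-phase genes) and the CHR word (TTTGAA, typical of mitosis genes) on either strand. The 2 words nearest each other in Mcm6, and those in Mcm5, overlap. These motifs were chosen after the values were seen. The windows are chr1:128359706-128359955 (minus strand) for Mcm6, chr8:75109259-75109508 (plus strand) for Mcm5, chr4:118437344-118437593 (minus strand) for Cdc20 and chr2:164769679-164769928 (plus strand) for Ube2c.
Mcm6: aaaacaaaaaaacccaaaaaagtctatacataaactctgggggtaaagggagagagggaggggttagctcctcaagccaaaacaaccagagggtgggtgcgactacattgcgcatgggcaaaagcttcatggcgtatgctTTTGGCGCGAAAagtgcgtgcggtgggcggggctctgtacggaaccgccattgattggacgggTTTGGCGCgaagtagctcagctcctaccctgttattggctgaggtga
Mcm5: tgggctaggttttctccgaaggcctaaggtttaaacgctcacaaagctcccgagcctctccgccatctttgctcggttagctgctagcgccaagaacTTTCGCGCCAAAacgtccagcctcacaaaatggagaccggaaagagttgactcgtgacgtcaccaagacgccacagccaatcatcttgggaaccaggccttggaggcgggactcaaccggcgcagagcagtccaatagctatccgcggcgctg
Cdc20: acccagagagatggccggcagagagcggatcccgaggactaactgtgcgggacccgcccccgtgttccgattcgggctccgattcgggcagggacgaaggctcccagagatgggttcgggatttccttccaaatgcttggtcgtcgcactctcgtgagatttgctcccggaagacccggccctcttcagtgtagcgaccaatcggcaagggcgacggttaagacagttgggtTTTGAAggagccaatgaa
Ube2c: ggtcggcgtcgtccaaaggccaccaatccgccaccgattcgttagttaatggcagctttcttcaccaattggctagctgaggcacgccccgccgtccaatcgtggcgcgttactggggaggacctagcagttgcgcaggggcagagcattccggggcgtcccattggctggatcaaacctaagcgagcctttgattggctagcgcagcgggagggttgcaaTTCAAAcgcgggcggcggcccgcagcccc
An E2F word stood in the windows of 12 of 26 replication genes (46.2%), 1 of 21 mitosis genes (4.76%), 10.2% of the lower genes and 2.56% of the higher genes, against 3.46% of measured genes and 1.84% of all windows. The CHR word stood at 14 of 21 mitosis genes (66.7%), 3 of 26 replication genes (11.5%), 23.1% of the lower genes and 19.2% of the higher genes, against 15.8% of measured genes and 17.9% of all windows. The word TTTGAA is also part of the TCF/LEF word CTTTGAA.

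**Figure D4:**
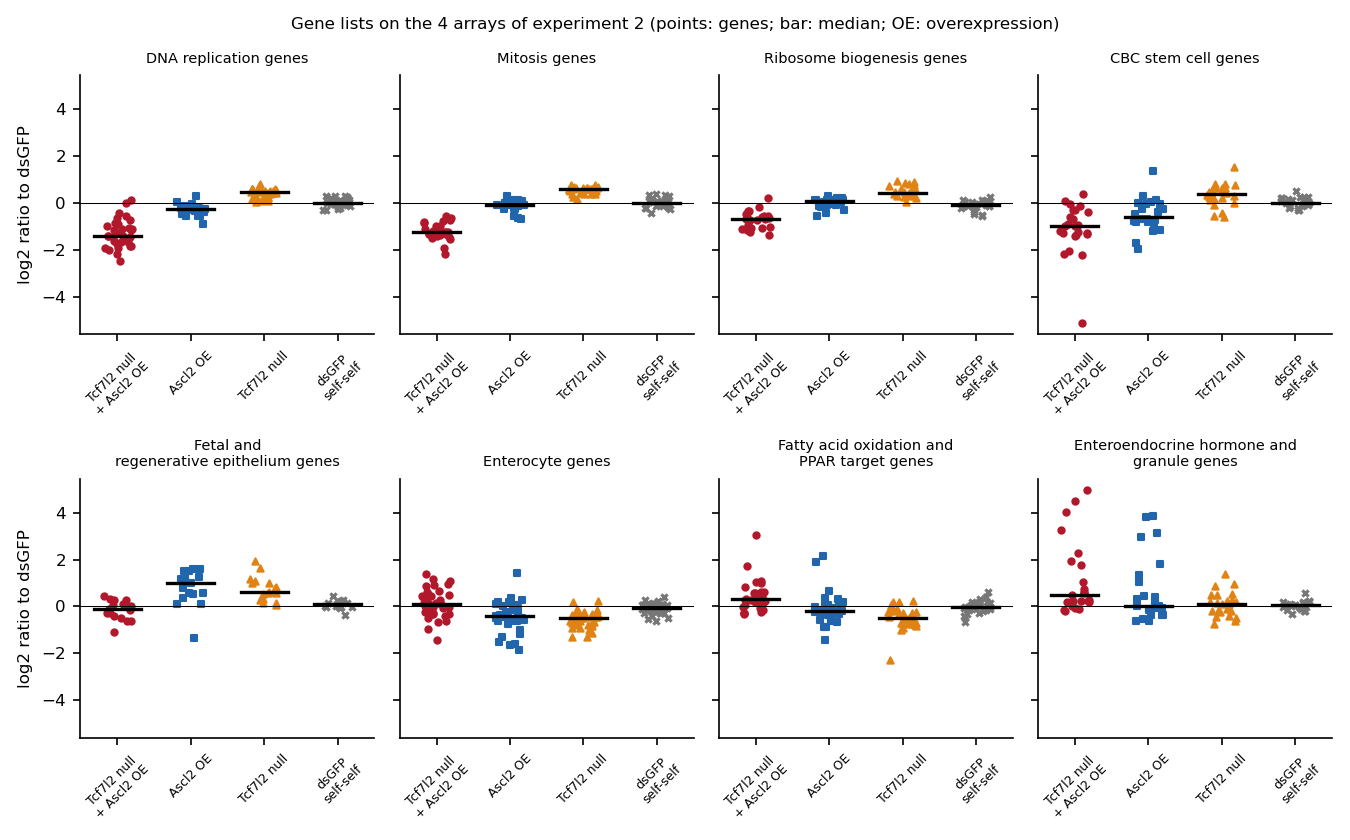
Log2 ratio to dsGFP of the members of 8 gene lists on the 4 arrays of experiment 2. Points are genes and bars are medians over genes of 1 array. Replication, mitosis and ribosome biogenesis genes have medians of -1.39, -1.21 and -0.66 on the Tcf7l2 null/Ascl2 array. On the Ascl2 array their medians are -0.23, -0.07 and 0.09. Fetal and regenerative genes are high on the Ascl2 array (median 1.02) and near the control on the Tcf7l2 null/Ascl2 array (-0.12).

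Genes of the entry into the cycle and of growth shared this direction in part. Of 17 G1 regulators, 4 were at least 2-fold lower, and the median was -0.43, but -0.04 with median centring. Cyclin D2, Ccnd2, was -1.74 in Tcf7l2 null/Ascl2 organoids and -0.18 in Ascl2 organoids (-1.56), and cyclin E1, Ccne1, -1.23 against 0.12 (-1.34). Among the inhibitors of these kinases, Cdkn1c was 0.56 against -0.21 (0.77). Cdkn2b, Cdkn1b and Cdkn1a had differences of 0.13, 0.10 and 0.04, and Cdkn2c one of -0.56. Of 26 clustered histone genes, which supply nucleosomes in S phase, 8 were at least 2-fold lower, with a median of -0.61 (-0.38 with median centring). Among these, H2ac1, H2ac10, H4c4 and H4c6 differed by only -0.61 to -0.71 in Cy5 alone. Their dsGFP RNA in Cy3 differed by 0.39 to 0.45, in the opposite direction. H1f5, H2ac13, H2ac15 and H2ac23 stayed past 2-fold in Cy5 alone. Of 24 ribosome biogenesis genes, 23 were lower, 4 of them at least 2-fold, with a median of -0.74 (-0.40 with median centring). The snoRNA protein Gar1 was -1.23 against 0.05 (-1.28) and the methyltransferase Fbl -1.01 against -0.03 (-0.98). The probes of Nop56 disagreed, at -1.17 and 0.11. On the Tcf7l2 null array all 24 were above the control (median 0.45).

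**Figure D5:**
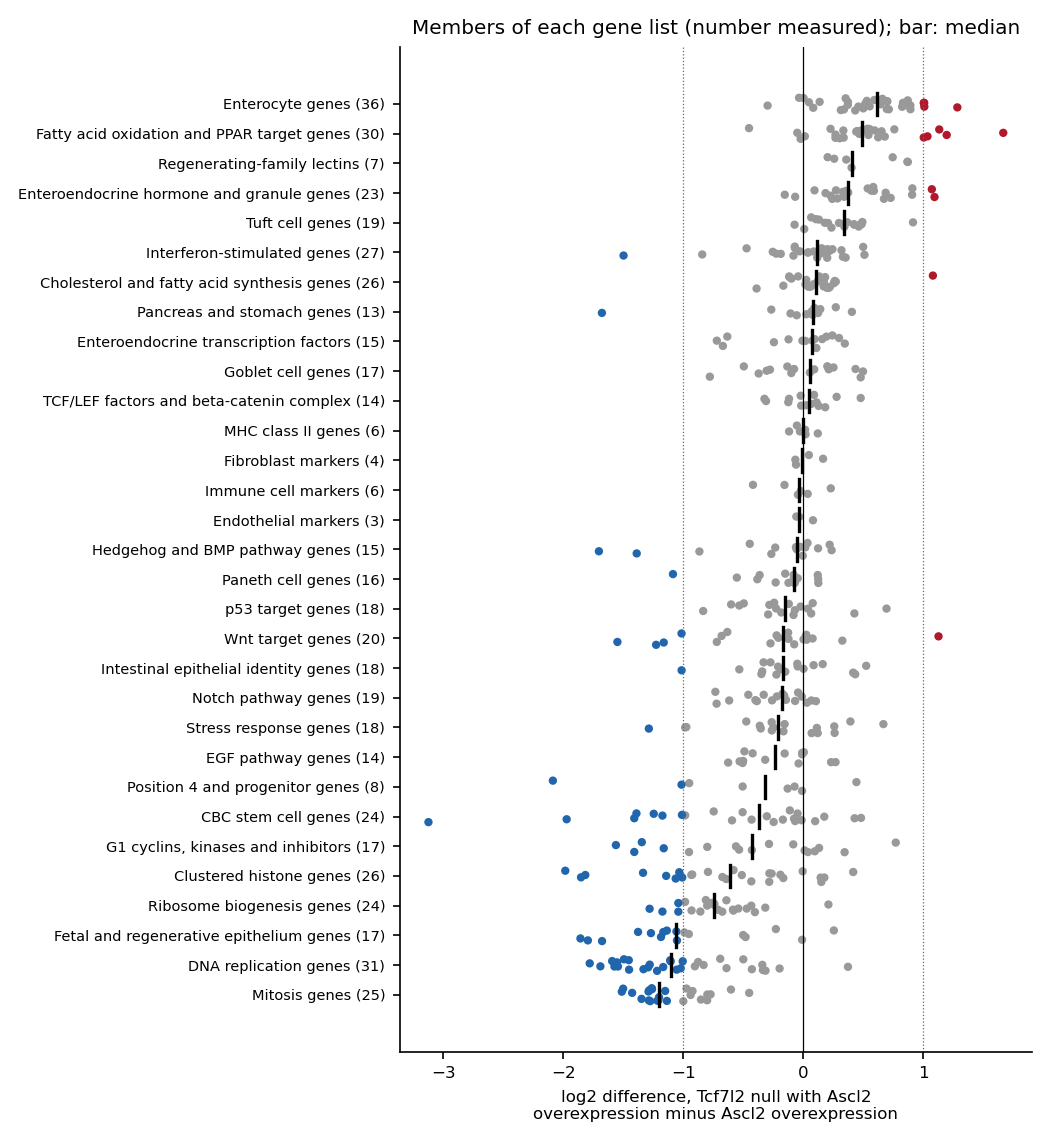
Log2 difference of every measured member of the 31 gene lists, in order of their medians (black bars), with the number measured in parentheses. Members at least 2-fold higher are red and at least 2-fold lower blue. Mitosis and replication genes lie lowest, at medians of -1.20 and -1.10, and enterocyte genes highest, at 0.62.

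Genes of fetal and regenerating epithelium differed by as much, but on the other array. Of 17 measured, 10 were at least 2-fold lower, with a median difference of -1.06. Their median was -0.12 in Tcf7l2 null/Ascl2 organoids and 1.02 in Ascl2 organoids, and 16 of the 17 were above the control in Ascl2 organoids. Besides Clu, the surface protein Msln was -0.42 against 1.26 (-1.68), the annexins Anxa3 and Anxa1 had differences of -1.38 and -1.14, and the alarmin Il33 one of -1.06. The keratins Krt18, Krt8 and Krt7 had differences of -1.79, -1.27 and -1.18. For Krt18 and Krt8 the dsGFP RNA in Cy3 itself differed by 1.05 and 0.84 between the arrays, in the opposite direction. In Cy5 alone their differences were -0.74 and -0.43, below 2-fold. Ly6a, the Sca-1 antigen of fetal-like epithelium, was low on both arrays, -1.09 against -1.34 (0.26). On the Tcf7l2 null array all 17 were above the control, with a median of 0.61.

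Genes of mature absorptive cells lay on the higher side. Of 36 enterocyte genes measured, 34 were higher in Tcf7l2 null/Ascl2 organoids, 4 of them at least 2-fold, with a median of 0.62 (1.15 with median centring). Of all measured genes, 9902 of 19268 were above 0. The list's median was 0.12 in Tcf7l2 null/Ascl2 organoids and -0.42 in Ascl2 organoids. Lactase, Lct, was -0.34 against -1.62 (1.28), the fructose transporter Slc2a5 -0.16 against -1.16 (1.01), the keratin Krt20 0.63 against -0.38 (1.01), and the fatty acid-binding protein Fabp1 0.50 against -0.51 (1.00). Fabp2, Rbp2, Dpp4 and Apoa4 had differences from 0.83 to 0.89. In Cy5 alone the list's median was 0.41. Fabp1 and Slc2a5 then differed by 0.58 and 0.88, below 2-fold, and Lct by 1.29. Fabp2 and Dpp4 differed by 0.27 and 0.46 in Cy5 alone, and Rbp2 and Apoa4 by 1.11 and 0.955. For Fabp1, Fabp2 and Dpp4 the dsGFP RNA in Cy3 differed by -0.42, -0.62 and -0.40. The brush border phosphatase Alpi was 0.28 against -0.06 (0.34), and the bile acid transporter Slc10a2 (-0.30) was lowest. The Cy5 intensities of the list summed to 1657965 units in Tcf7l2 null/Ascl2 organoids and 1225852 units in Ascl2 organoids. Of 30 genes of fatty acid oxidation and PPAR targets, 27 were higher, 5 of them at least 2-fold, with a median of 0.49. Besides Me1 and Fabp1 these were the thioesterase Acot1 (1.20), the lipase inhibitor Angptl4, at 3.03 against 1.90 (1.13), and the fatty acid carrier Cd36, at 1.08 against 0.05 (1.04). On the Tcf7l2 null array the medians of both lists were -0.51 and -0.49. In cholesterol and fatty acid synthesis 1 of 26 genes was 2-fold apart, the desaturase Scd1, at -0.40 against -1.48 (1.08).

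Secretory cell types differed from each other. Of 23 enteroendocrine hormone and granule genes, 21 were higher, 2 of them at least 2-fold, with a median of 0.38. Proglucagon, Gcg, was 4.95 in Tcf7l2 null/Ascl2 organoids and 3.87 in Ascl2 organoids (1.07), and secretin, Sct, 0.49 against -0.60 (1.09). Gip (4.51 against 3.84), Cck (4.04 against 3.13) and Sst (3.24 against 2.96) were far above the control on both arrays and within 2-fold of each other. Their transcription factors had a median of 0.08 over 15 members, with a difference of -0.67 for Neurog3, the factor that starts this lineage. Of 19 tuft cell genes 18 were higher, with a median of 0.34. Of these 0 reached 2-fold, and at the share of 1.97% over all genes a list of this size need hold none. Dclk1 was 1.33 against 0.84 (0.49), and Ltc4s, the leukotriene C4 synthase, 1.03 against 0.11 (0.91).

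Paneth cell genes were low on both arrays and differed little. Their medians were -1.23 in Tcf7l2 null/Ascl2 organoids and -0.92 in Ascl2 organoids, and the median difference was -0.08 over 16 genes. Lysozyme, Lyz1, was -2.07 against -1.84 (-0.23) and the defensin Defa21 -2.23 against -2.15 (-0.07). The antimicrobial ribonuclease Ang4, at -3.14 against -2.06 (-1.09), was the 1 member 2-fold apart. A dimmer Ang4 probe differed by -0.66, and Cy5 alone gave -0.92, both below 2-fold. Goblet cell genes had a median of 0.06 over 17 members, between -0.78 for the transcription factor Foxa3 and 0.50 for the lectin Zg16. Of these 0 were 2-fold apart, and at the share of 1.97% over all genes a list of this size need hold none. The mucin Muc2 was 0.12 against -0.31 (0.44), with a dimmer probe at -0.06. The median changed sign under at least 1 of the 9 other ways of processing these arrays for 11 lists: Paneth, goblet, TCF/LEF, enteroendocrine transcription factors, MHC class II, p53, stress, epithelial identity, fibroblast, immune and endothelial. The medians of the other 20 lists kept their sign. The ratios of all 7 regenerating-family lectins were higher within 2-fold, up to 0.87 for Reg3b and Reg3d. In Cy5 alone Reg3d differed by 0.68, Reg3b by 0.00 and Reg3g by -0.06, and for Reg3b the dsGFP RNA in Cy3 differed by -0.87.

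In the other lists single genes stood out. Smo, the Hedgehog signal transducer, was -2.41 against -0.71 (-1.70) and the BMP target Id2 -0.22 against 1.16 (-1.39), while other probes of these genes gave differences as small as -0.34 and -0.21. The homeobox factor Cdx2, which sets intestinal identity, was -0.53 against 0.49 (-1.01). The interferon-induced membrane protein Ifitm3 was -2.58 against -1.09 (-1.50), whereas the interferon list as a whole had a median of 0.12. Of its 27 genes 1 was 2-fold apart, against 1.97% over all genes. The stress gene Ddit4 was -1.11 against 0.17 (-1.29), and the protease precursor Ctrb1 -1.78 against -0.11 (-1.68). No gene of the Notch list (19 measured), the EGF list (14), the p53 target list (18) or the MHC class II list (6) was 2-fold apart. At the share of 1.97% over all genes, lists of this size need hold none. In the authors' deposited table Notch2 (-1.10), Hes5 (-1.35) and Epgn (-1.38) were past 2-fold.

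Markers of other cell types were few and low. Epithelial markers were present, with 17 of 18 identity genes well above background in Ascl2 organoids, and Epcam and Cdh1 differing by -0.33 and -0.35. Of the fibroblast markers 4 were measured, of the immune markers 6 and of the endothelial markers 3, with median differences of -0.01, -0.03 and -0.03. Their Cy5 intensities summed to 602.9, 1160 and 470.3 units in Tcf7l2 null/Ascl2 organoids and to 558.0, 1130 and 422.4 units in Ascl2 organoids. The collagen genes Col1a1 and Col3a1 and the receptor Kdr were not well above background on either array. No spot was saturated. The share of spots well above background in Cy5 was 53.8% for Tcf7l2 null/Ascl2 organoids and 55.2% for Ascl2 organoids, and in Cy3 50.1% and 53.8%. All 4 arrays of experiment 2 lay on 1 slide and were scanned on 1 day.

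Outside experiment 2, the genes that differed by 2-fold had these values. The 276 lower genes had a median of 0.21 on the Ascl2 arrays of experiment 1, with 234 above the control, and of -0.23 on the Ascl2 null array of experiment 3, with 85 above it. The 104 higher genes had medians of -0.43, with 7 above the control, and 0.39, with 75 above it. Olfm4 was 0.89 on the experiment 1 arrays and -3.24 on the Ascl2 null array, and Gcg -0.90 and 5.53. Across genes the difference had a Pearson correlation of -0.50 with the Ascl2 log2 ratio of experiment 1 (19201 genes) and of 0.22 with that of Ascl2 null organoids (19238 genes). These arrays lay on slides other than that of the 2 compared here, with organoids labelled VillinCreERT2 as controls. Another label describes the experiment 3 control as Ascl2 loxP/loxP organoids.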

How the data were processed

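RNA (500 ng a sample) was labelled with Cy3 or Cy5 and hybridised to 2-colour Agilent arrays of design 014868, per the labels' protocols and the file headers. The authors deposited the scanner output of Agilent Feature Extraction 10.5.1.1, whose spot signals are intensities on a linear scale and whose log ratio is a log10 value, per the file headers. They also deposited a table of processed values, which the match to the scanner ratios shows to be log2 ratios of Cy5 over Cy3. On both arrays compared here its values matched the scanner's within 0.005, with medians of 0.03 for Tcf7l2 null/Ascl2 organoids and 0 for Ascl2 organoids, so scale and direction were settled and no centring of genes was seen. Both served as alternatives.

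Median spot intensities were background-corrected by normexp with an offset of 50 and normalised by loess within each array (limma 3.58.1, R 4.3.3), and aligned between arrays by Aquantile for single channels. Control spots and outlier flags were left out, and spots of a probe were averaged. Probes were kept if Cy3 or Cy5 passed the scanner's background test on 2 or more of the 8 arrays, and a gene took its brightest probe. Of 41174 probes, 26918 were named through their own RefSeq accession, 97 through another accession and 14159 by the array's name. Probe coordinates are mm9, and exon or UTR positions were not looked up. A bound from Cy5 alone sets the array above background against the lowest Cy5 signal well above background on the other (log2 6.88 and 6.95). Tables were joined with pandas 2.3.3 in Python 3.11.15. The normalisation was tested on simulated data with a uniform gain and changes balanced in direction. That setting cannot decide between loess and median centring for these arrays.

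The text names the 12 genes farthest apart in each direction with a current symbol, above background on both arrays, and at least 2-fold in the same direction also by the scanner ratio and by Cy5 alone. It also names the 5 largest bounds each way, the 2 highest and 2 lowest members of each list, and fixed marker genes. Further list members were named after their values were seen. The comparison, its members and the gene lists were chosen with earlier results of these data known. With 1 array a side, the number of arrays limits the precision, and 10 alternatives were computed in place of a test.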

Additional observations from a re-analysis of the deposited data

Results flagged for a closer look

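On the array labelled Tcf7l2 null, several lists and genes lay on the side opposite to the difference described above. In each sentence the first value is the difference of Tcf7l2 null/Ascl2 organoids less Ascl2 organoids, and the second that of Tcf7l2 null organoids less the dsGFP self-self array. Values were taken where both were at least 0.25 in size for a list median, or 1 for a gene, with opposite signs. These differences between the contrasts were not tested, both rest on 1 array a side, and the arrays share the dsGFP control. They also rest on the labels. The Ascl2 probe was -0.92 and -0.68 on the arrays labelled as overexpressing Ascl2, and -0.57 on the Tcf7l2 null array. Whether labels were exchanged was not tested.

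The medians of the division and growth lists were negative for the first difference and positive for the second. They were -1.10 and 0.45 for DNA replication, -1.20 and 0.61 for mitosis, and -0.43 and 0.34 for G1 regulators. For histones they were -0.61 and 0.40, and for ribosome biogenesis -0.74 and 0.52. The same held for CBC stem cell genes (-0.37 and 0.38), position 4 and progenitor genes (-0.32 and 0.32), and fetal and regenerative genes (-1.06 and 0.51). Enterocyte genes (0.62 and -0.44) and fatty acid oxidation and PPAR target genes (0.49 and -0.48) had the reverse signs.

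Among genes higher in the first difference, these pairs were 2.21 and -1.41 for Mbl2, 2.09 and -1.77 for Hsd17b6, and 1.94 and -1.34 for Maob. For Slc5a4a they were 1.69 and -1.09, and for Me1 1.67 and -2.45. They were 1.65 and -1.21 for Cox7a1, 1.57 and -1.05 for Aqp3, 1.01 and -1.23 for Slc2a5, and 1.00 and -1.42 for Fabp1. Among genes lower in the first difference, they were -1.97 and 1.62 for Aqp4, -1.93 and 1.13 for Vapb, and -1.92 and 1.07 for Cyba. For Ccnd2 they were -1.56 and 1.04, and for Gar1 -1.28 and 1.17. They were -1.79 and 1.48 for Krt18, -1.39 and 2.99 for Id2, and -1.68 and 2.16 for Ctrb1.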

How the results depend on the processing

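The 104 genes at least 2-fold higher and 276 lower became 590 and 104 with median centring, 835 and 1009 with the scanner's log ratio, 403 and 635 in the authors' deposited table, 215 and 483 with normexp at no offset, and 421 and 640 with the experiment 1 arrays as Ascl2 overexpression. Cy5 alone gave 196 higher, and the other settings stayed within 1.5-fold. Of the 104 and 276 genes, 102 and 276 remained at no offset, 73 and 193 in Cy5 alone, and 56 and 211 with the experiment 1 arrays. With median centring the list medians were -0.84 for mitosis, -0.40 for ribosome biogenesis, 0.31 for Paneth, 0.82 for enteroendocrine hormones, 1.15 for enterocyte, 0.99 for fatty acid oxidation and -0.69 for fetal genes. They were also nearer 0 for CBC (-0.12), Wnt target (-0.08), G1 (-0.04), position 4 (-0.04) and histone genes (-0.38). Less the 0.12 shift of all genes, enterocyte genes were at 1.03 and Paneth genes at 0.19. With the experiment 1 arrays they were -0.55 for Wnt targets, -1.30 for CBC, -1.44 for replication, -1.50 for Paneth, 0.90 for enteroendocrine hormones, 1.05 for tuft and -0.71 for fetal genes, and 29 of 160 named genes changed sign, among them Cybrd1 (0.49) and Anxa10 (0.10), the only ones of these 29 at least 2-fold apart in the main setting. CBC genes were at -0.90 by the scanner's ratio, -0.96 in the authors' deposited table and -0.75 at no offset. Of 160 named genes, 74 moved by more than the technical spread with median centring, 39 in Cy5 alone and 78 with the experiment 1 arrays. The cause of these shifts was not tested. No paired analysis was possible because each group has 1 array. The main limits are 1 array a side, probes that do not check the labels, and dim spots, for which Cy5 alone gives only bounds.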
